A study of Homo sapiens with 21 samples.

Results

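Metallothioneins and the genes that act with them in zinc handling were examined in hTERT-HPNE cells, an immortalized, nontransformed line derived from human pancreatic duct, after oxidative stress or DNA double-strand breaks. The 9 genes were selected by symbol, and all 9 had a row among the 23368 genes of the table. They were 7 metallothionein genes (MT1A, MT1E, MT1F, MT1G, MT1M, MT1X and MT2A), the zinc exporter gene SLC30A1 and MTF1, the gene for the metal-responsive transcription factor. RNA-seq of 21 libraries covered 7 groups, each with 3 biological replicates. Untreated cells were collected at 0 h, and treated cells at 4, 8 or 24 h after 300 μM H2O2, an oxidant, or 400 ng/ml neocarzinostatin (NCS), a radiomimetic drug that breaks DNA. All cells grew in medium with serum, EGF and puromycin. Treated cells also received fresh medium, and all untreated cells were taken at 0 h, so in comparisons with untreated cells the drug cannot be told apart from the medium change and the time in culture. Comparisons of H2O2 with NCS at the same time do not have this limit.

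Metallothioneins are small, cysteine-rich proteins that bind zinc and copper in the cytosol and can release zinc when their thiols are oxidized. When free zinc rises, the zinc-finger factor MTF1 binds metal response elements in gene promoters and raises transcription of metallothioneins and of SLC30A1. SLC30A1 encodes ZnT1, which moves zinc out across the plasma membrane. MT2A and the MT1 genes lie in a cluster on chromosome 16, while SLC30A1 and MTF1 are on chromosome 1. Glucocorticoids also raise transcription of MT2A and some MT1 genes.

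The promoters of SLC30A1, MT1X and MT2A are shown because they hold differing numbers of metal response element cores. The levels of these genes also took different courses, and a link between number and course was not tested. Each sequence is the 250 bases before the RefSeq start on GRCh38.p14, and capitals mark each metal response element core, TGCACNC or TGCGCNC, found on either strand. The SLC30A1 sequence is chr1:211579162-211579411 on the minus strand, with 1 core:
SLC30A1: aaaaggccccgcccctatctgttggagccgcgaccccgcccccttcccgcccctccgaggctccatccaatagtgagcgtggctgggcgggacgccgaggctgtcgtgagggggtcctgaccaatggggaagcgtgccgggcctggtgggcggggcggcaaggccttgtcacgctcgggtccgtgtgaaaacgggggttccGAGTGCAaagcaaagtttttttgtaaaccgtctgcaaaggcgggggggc
The MT1X sequence is chr16:56682220-56682469 on the plus strand, with 4 cores:
MT1X: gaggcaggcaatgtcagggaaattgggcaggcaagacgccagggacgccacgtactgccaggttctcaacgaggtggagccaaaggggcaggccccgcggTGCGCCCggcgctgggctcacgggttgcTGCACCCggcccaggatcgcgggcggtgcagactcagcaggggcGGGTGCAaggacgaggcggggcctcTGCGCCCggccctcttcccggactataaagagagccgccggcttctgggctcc
The MT2A sequence is chr16:56608334-56608583 on the plus strand, with 7 cores:
MT2A: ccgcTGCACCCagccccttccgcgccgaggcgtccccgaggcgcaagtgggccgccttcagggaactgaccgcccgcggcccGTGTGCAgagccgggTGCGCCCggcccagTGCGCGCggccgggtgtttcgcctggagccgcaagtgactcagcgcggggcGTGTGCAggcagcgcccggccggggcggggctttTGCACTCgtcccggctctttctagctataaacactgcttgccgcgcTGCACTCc

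Of 35116 RefSeq promoters of this length, 24.8% held at least 1 metal response element core, 0.37% held at least 4 and 0.0313% held at least 7. The MTF1 promoter (chr1:37859593-37859842, minus strand) held none. SLC30A1, MT1X and MT2A each also held 1 match to the antioxidant response element core, TGACNNNGC on either strand, which was present in 10.9% of promoters. The match in MT2A overlapped an AP-1 site, TGANTCA, a motif present in 6.57% of promoters. RefSeq promoters were matched for 4 of the 9 genes. A match describes letters in this window and does not show that a factor binds there.

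Expression is given as rLog values, which DESeq2 makes from counts on a log2 scale after correction for library size and in which differences are shrunk, above all at low counts. They can be compared between libraries for a gene but not between genes, since they are not corrected for transcript length. The table holds no counts, so depth is unknown. Library medians of the genes tested lay between 7.14 and 7.19. Groups were compared with limma in a single fit over the 19694 genes that varied, all 9 members among them. A gene was called at a Benjamini-Hochberg adjusted p-value under 0.05 and called differentially expressed when the absolute log2 difference was also over 1. For a single gene, an exact permutation test of 3 libraries against 3 cannot give p below 0.1. All 6 comparisons with untreated cells share the same 3 control libraries. Of the markers of the line, NES, VIM, KRT8 and KRT18 had group means of at least 7.77, while KRT19, a keratin that marks pancreatic duct, was near the low end of the table with group means of at most 0.65. Of 7 markers of other cells, acinar PRSS1 and CELA3A and endocrine INS were listed at 0 in every library, and acinar CPA1, endocrine GCG and blood PTPRC stayed below 1. Endothelial PECAM1 lay between 2.02 and 2.17 in all groups except H2O2 at 4 h, where it lay between 2.28 and 2.42 (difference from untreated 0.33, adjusted p = 2.08e-07). Its part in the results was not tested.

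SLC30A1, the zinc exporter gene, was the member that moved most, and it was higher than in untreated cells in both treatments at every time. Untreated replicates 1 to 3 had rLog values of 8.26, 8.26 and 8.40. At 4 h, the H2O2 libraries had values of 10.48, 10.46 and 10.53, and the NCS libraries had values of 9.60, 9.62 and 9.49. All 3 groups were separate, with H2O2 highest and untreated cells lowest. Against untreated cells, the log2 difference was 2.18 (SE 0.05, 95% interval 2.07 to 2.29, adjusted p = 1.82e-15) in H2O2, 4.54-fold on the rLog scale. It was 1.26 (SE 0.05, interval 1.15 to 1.37, adjusted p = 1.07e-11) in NCS, 2.40-fold. By size of rise, SLC30A1 ranked 9 of 19694 genes in H2O2 and 11 in NCS at 4 h.

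The rise then receded in both treatments. At 8 h, SLC30A1 values were 9.90, 9.69 and 9.88 in H2O2 and 8.98, 9.02 and 8.93 in NCS. H2O2 libraries were still far above NCS libraries, and both groups were above untreated cells. The differences from untreated cells were 1.52 (adjusted p = 1.15e-12) and 0.67 (adjusted p = 2.29e-08). At 24 h, values were 8.90, 8.90 and 8.91 in H2O2 and 8.914, 9.002 and 8.870 in NCS. The treatments overlapped at this time, and both lay above untreated cells, by 0.60 (adjusted p = 2.65e-08) and 0.62 (adjusted p = 1.71e-08). In H2O2, the level fell by 0.66 from 4 to 8 h (adjusted p = 1.39e-08) and by 0.92 from 8 to 24 h (adjusted p = 1.44e-10). In NCS, it fell by 0.59 from 4 to 8 h (adjusted p = 6.24e-07), and the change from 8 to 24 h did not pass the test (difference -0.05, interval -0.16 to 0.07).

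**Figure D1:**
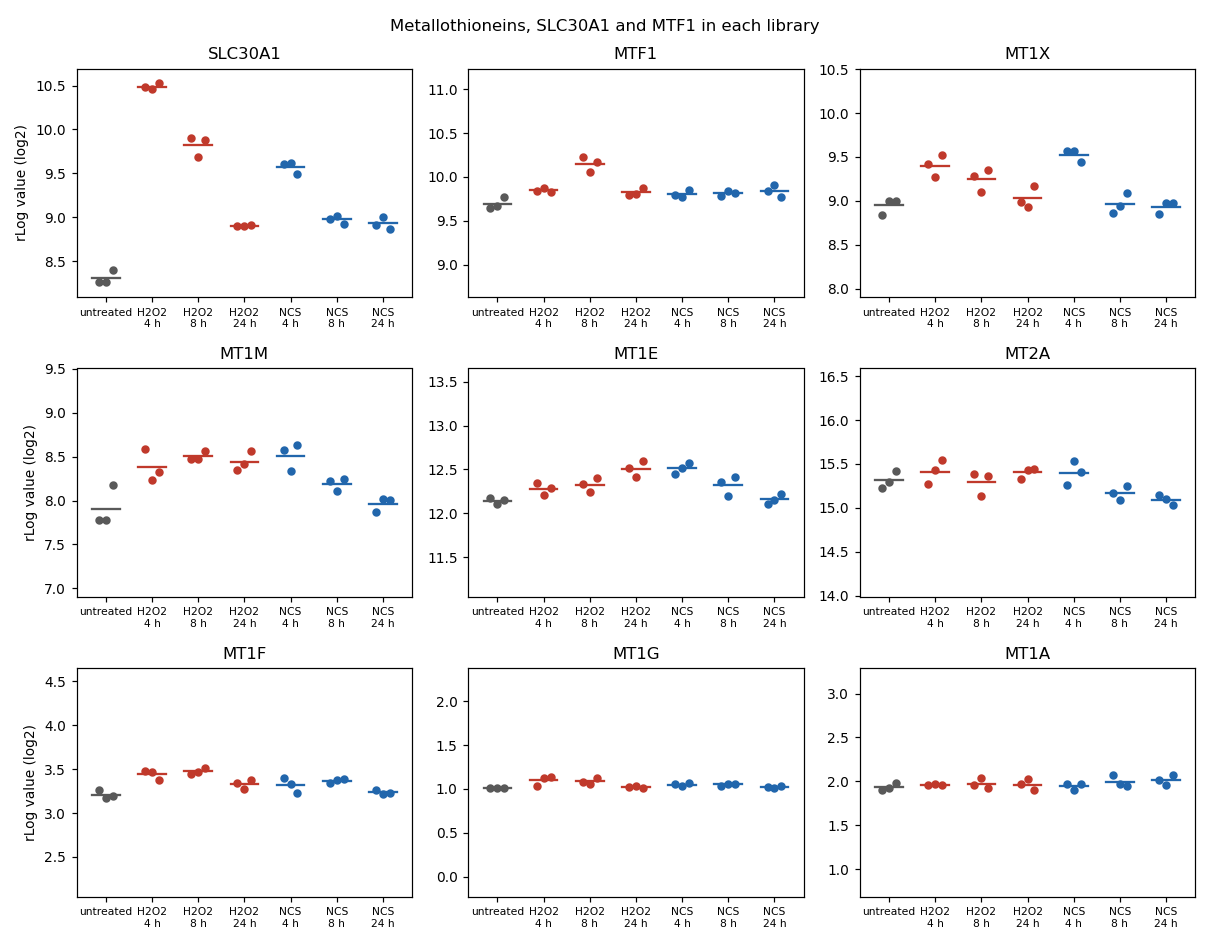
rLog values (log2, y axis) of the 9 members in each of the 21 libraries, by group on the x axis. Points are libraries, bars are means of 3 replicates, and every panel spans the same height on its own scale. SLC30A1 moves most, from 8.31 on average in untreated cells to 10.49 in H2O2 at 4 h, while MT1A, MT1F and MT1G lie at low values with little movement.

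MT1X, a metallothionein of the cluster, rose at 4 h in both treatments and was close to its untreated level by 24 h. Untreated values were 8.841, 9.003 and 9.002. At 4 h, values were 9.42, 9.27 and 9.52 in H2O2 and 9.57, 9.56 and 9.45 in NCS. Every treated library was above every untreated library, while the treatments overlapped. The difference from untreated cells was 0.45 (SE 0.08, adjusted p = 0.000147) in H2O2 and 0.58 (SE 0.08, adjusted p = 4.04e-05) in NCS. At 8 h, H2O2 values of 9.29, 9.10 and 9.35 were still above the untreated range (difference 0.30, adjusted p = 0.00621). NCS values of 8.86, 8.94 and 9.09 at 8 h overlapped it (difference 0.02, interval -0.15 to 0.19). The fall in NCS between 4 and 8 h was 0.56 on the log2 scale (adjusted p = 8.96e-05). At 24 h neither treatment passed the test against untreated cells, with differences of 0.08 in H2O2 (interval -0.09 to 0.25) and -0.02 in NCS (interval -0.19 to 0.15).

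MT1M, another metallothionein of the cluster, was called higher than in untreated cells at all 3 times in H2O2 and at 4 h in NCS. Its untreated values of 7.78, 7.78 and 8.17 had the widest spread of any member in the controls (SD 0.23), with replicate 3 the highest. In H2O2, values were 8.59, 8.23 and 8.33 at 4 h, 8.47, 8.47 and 8.57 after 8 h, and 8.35, 8.41 and 8.56 at 24 h. All 9 H2O2 libraries were above the highest untreated library. The differences in time order were 0.47, 0.59 and 0.53, each with an SE of 0.10, and their adjusted p-values were 0.00105, 0.000151 and 0.000365. In NCS, values were 8.57, 8.33 and 8.63 at 4 h, 8.22, 8.11 and 8.25 after 8 h, and 7.87, 8.01 and 8.00 at 24 h. Only at 4 h were all NCS libraries above the untreated range. The NCS differences were 0.60, 0.28 and 0.05, with adjusted p-values of 0.000389, 0.0584 and 0.806. The 8 h difference was called with the replicate number as a block (adjusted p = 0.0295), under median alignment (0.0152) and with genes of a mean of at least 5 (0.0124). It was also called without untreated replicate 3 (adjusted p = 0.00416), replicate 1 of H2O2 at 4 h (0.0388) or replicate 2 of NCS at 4 h (0.0461).

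MT1E, whose gene is a neighbour of MT1M in the cluster, had opposite time courses in the treatments. Untreated values were 12.17, 12.10 and 12.16. In H2O2, values were 12.35, 12.21 and 12.29 at 4 h, 12.33, 12.24 and 12.40 after 8 h, and 12.52, 12.42 and 12.60 at 24 h. In NCS, values were 12.44, 12.51 and 12.58 at 4 h, 12.36, 12.20 and 12.41 after 8 h, and 12.11, 12.15 and 12.22 at 24 h. The highest values were thus at 24 h in H2O2 and at 4 h in NCS. Against untreated cells, the H2O2 differences were 0.14 (adjusted p = 0.0563), 0.18 (adjusted p = 0.0165) and 0.37 (adjusted p = 3.13e-05). The NCS differences were 0.37 (adjusted p = 0.000126), 0.18 (adjusted p = 0.0273) and 0.02 (adjusted p = 0.945). The 8 h calls rested on single libraries. In H2O2 the call ended without untreated replicate 2 (adjusted p = 0.065) or H2O2 replicate 3 (0.0922), and in NCS without untreated replicate 2 (0.0986) or 3 (0.053) or NCS replicate 1 (0.0948) or 3 (0.148). The NCS call also ended in a fit of the compared groups alone (adjusted p = 0.08). The H2O2 difference at 4 h was called with the replicate block (adjusted p = 0.00928), under median alignment (0.038), with genes of a mean of at least 5 (0.0172) and in a fit of the compared groups alone (0.0385). It was also called when any of 6 libraries was left out (adjusted p from 0.0324 to 0.0492), namely replicate 2 of H2O2 at 4 h, at 8 h or at 24 h, replicate 3 of H2O2 at 24 h, or replicate 2 or 3 of NCS at 8 h.

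MT2A, the most widely expressed human metallothionein gene, was called against untreated cells at a single time, lower in NCS at 24 h. Untreated values were 15.23, 15.30 and 15.42. H2O2 values were 15.27, 15.43 and 15.54 at 4 h, 15.38, 15.13 and 15.36 after 8 h, and 15.33, 15.43 and 15.44 at 24 h, overlapping the untreated range each time. The differences of 0.09, -0.03 and 0.09 did not pass the test, and the 95% intervals ran from -0.19 at the lowest to 0.26 at the highest. Under quantile normalization the 24 h difference was 0.19 and was called (adjusted p = 0.0351). NCS values were 15.26, 15.53 and 15.41 at 4 h, 15.17, 15.09 and 15.25 after 8 h, and 15.15, 15.10 and 15.03 at 24 h. The NCS differences of 0.08 at 4 h (interval -0.08 to 0.25) and -0.15 at 8 h (interval -0.31 to 0.01) did not pass the test, and the second was called lower under median alignment (difference -0.17, adjusted p = 0.0226). At 24 h, every NCS library was below every untreated library (difference -0.22, SE 0.08, adjusted p = 0.0302). That call ended without untreated replicate 2 (adjusted p = 0.0542) or 3 (0.145) or NCS replicate 2 (0.0637) or 3 (0.109).

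MTF1, the gene for the factor that reads free zinc, had a peak in H2O2 at 8 h. Untreated values were 9.64, 9.67 and 9.77. In H2O2, values were 9.84, 9.87 and 9.83 at 4 h, 10.23, 10.06 and 10.17 after 8 h, and 9.79, 9.81 and 9.87 at 24 h. The 8 h libraries were above all others of this gene. The difference from untreated cells was 0.46 at 8 h (SE 0.04, adjusted p = 1.05e-07). It was smaller before and after that time, at 0.16 (adjusted p = 0.00609) and 0.13 (adjusted p = 0.0171). MTF1 rose by 0.31 from 4 to 8 h (adjusted p = 1.18e-05) and fell by 0.33 from 8 to 24 h (adjusted p = 4.94e-06). The 9 NCS libraries lay between 9.77 and 9.91, with differences from untreated cells of 0.11, 0.12 and 0.15 (adjusted p = 0.0792, 0.0487 and 0.00886). The first of these was called without untreated replicate 3 (adjusted p = 0.0275) or replicate 2 of H2O2 at 8 h (0.0388). It was also called with genes of a mean of at least 5 (adjusted p = 0.0393). The NCS call at 8 h ended when any of 15 of the 21 libraries was left out (adjusted p at most 0.196, without untreated replicate 1). It also ended under median alignment (adjusted p = 0.0805), with the replicate block (0.0591) and in a fit of the compared groups alone (0.0832). The H2O2 call at 24 h ended without untreated replicate 1 (adjusted p = 0.0849) or 2 (0.0624) or H2O2 replicate 3 (0.084), and the NCS call at 24 h without NCS replicate 2 (0.0587). That NCS call also ended in a fit of the compared groups alone (adjusted p = 0.0557).

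MT1F, MT1G and MT1A had low values, where rLog shrinkage is strongest, so their differences cannot be read as fold changes of expression. MT1F lay between 3.18 and 3.26 in untreated cells, between 3.37 and 3.48 in H2O2 at 4 h and between 3.45 and 3.52 at 8 h. It passed the test at both times (adjusted p = 0.000346 and 9.14e-05), though not at 4 h under quantile normalization (difference 0.08, adjusted p = 0.137). At 24 h it lay between 3.28 and 3.37 in H2O2 (adjusted p = 0.0404), and in NCS it passed at 8 h (3.35 to 3.38, adjusted p = 0.0125). The first of these calls ended without untreated replicate 2 (adjusted p = 0.134) or 3 (0.106) or H2O2 replicate 1 (0.0955) or 3 (0.149), and the second without untreated replicate 2 (0.0549). The first also ended under median alignment (adjusted p = 0.0799), quantile normalization (0.0697) and in a fit of the compared groups alone (0.0514). MT1G was at 1.02 in all 3 untreated libraries and between 1.04 and 1.13 in H2O2 at 4 h and 1.06 and 1.12 at 8 h (adjusted p = 0.00294 and 0.00913). The 8 h call ended without H2O2 replicate 3 (adjusted p = 0.0633), and the 4 h call under quantile normalization (difference 0.02, adjusted p = 0.482) and in a fit of the compared groups alone (adjusted p = 0.061). MT1A lay between 1.90 and 2.07 in all 21 libraries and was called in none of the comparisons.

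**Figure D2:**
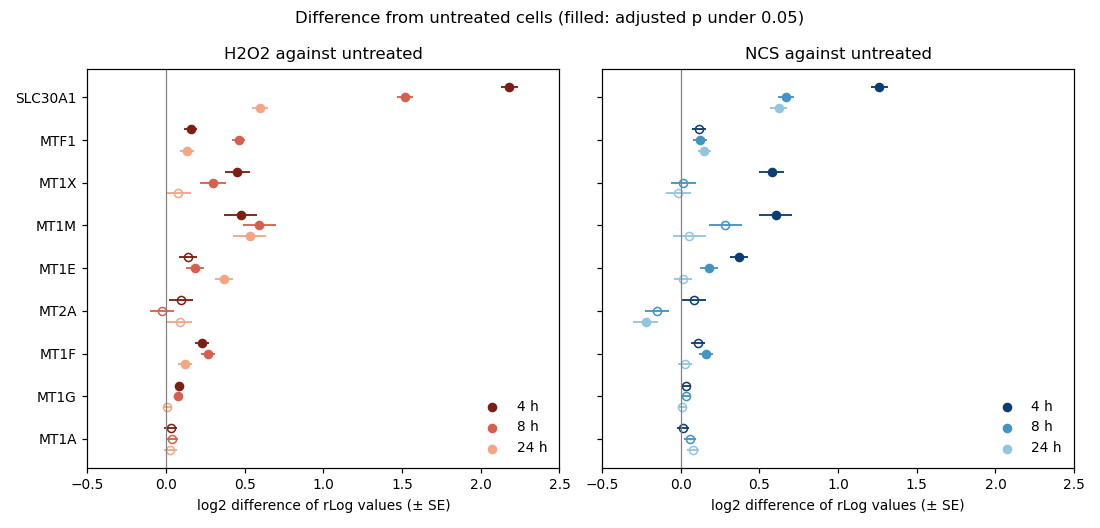
Log2 difference of rLog values from untreated cells (x axis, ± SE) for each member in H2O2 (left) and NCS (right) at 4, 8 and 24 h. Filled points have an adjusted p under 0.05. SLC30A1 is the only member past a difference of 1, at 4 and 8 h in H2O2 and at 4 h in NCS, and MT2A is the only member called lower, in NCS at 24 h.

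By count, 6 of 9 members were called higher than in untreated cells at 4 h in H2O2, against 26.2% of all genes tested. Of the 9, 7 were called higher at 8 h (18.8% of all genes) and 5 at 24 h (20.2%). In NCS, 4 members were called higher at 4 h (7.47% of all genes), 4 at 8 h (10.5%) and 2, SLC30A1 and MTF1, at 24 h (19.6%). No member was called lower except MT2A in NCS at 24 h, where 18.4% of all genes were called lower. The corresponding shares of all genes called lower were 19.7%, 18.6% and 19.9% in H2O2 at 4, 8 and 24 h, and 9.72% and 13.3% in NCS at 4 and 8 h. SLC30A1 alone was differentially expressed, in H2O2 at 4 h (0.696% of all genes) and 8 h (0.518%) and in NCS at 4 h (0.218%). No member was differentially expressed in H2O2 at 24 h (1.61%) or in NCS at 8 h (0.34%) or 24 h (1.5%). The median difference of the 9 members was 0.16, 0.27 and 0.12 in H2O2 and 0.11, 0.12 and 0.03 in NCS at 4, 8 and 24 h, while that of all genes lay within 0.004 of 0.

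**Figure D3:**
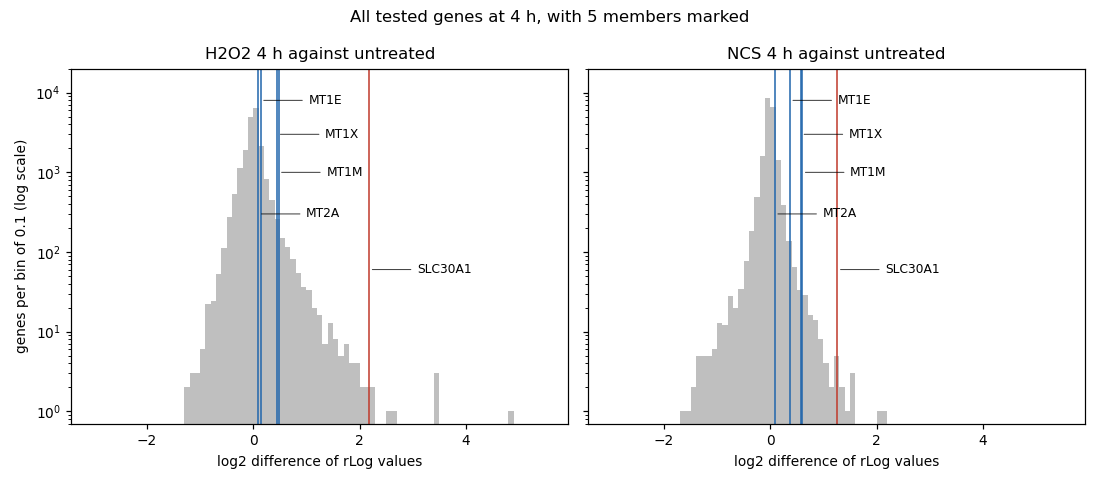
Number of genes (y axis, log scale) by log2 difference of rLog values from untreated cells at 4 h (x axis, bins of 0.1) for all 19694 genes tested. Lines mark 5 members, with SLC30A1 at 2.18 in H2O2 and 1.26 in NCS, in the upper tail of both distributions.

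The comparison of H2O2 with NCS at the same time asks which members differ between cells given 300 μM H2O2 and cells given 400 ng/ml NCS. Each agent was used at a single dose, so the kind of stress cannot be told apart from its strength. The paper reports more cell death with H2O2 than with NCS at the highest doses it tested. The part of cell death in the differences between treatments was not tested. At 4 h, SLC30A1 was higher in H2O2 by 0.92 (SE 0.05, interval 0.81 to 1.03, adjusted p = 1.55e-10), and MT1E was lower in H2O2 by 0.23 (difference -0.23, SE 0.06, adjusted p = 0.00299). MT1F was higher by 0.12 at low values (adjusted p = 0.0373). That MT1F call ended without H2O2 replicate 1 (adjusted p = 0.13) or 2 (0.103) or NCS replicate 2 (0.0602) or 3 (0.223). Under quantile normalization it ended with a change of sign (difference -0.02, adjusted p = 0.712). It also ended under median alignment (adjusted p = 0.0502) and in a fit of the compared groups alone (0.162). Thus 2 members were called higher (26.3% of all genes) and 1 lower (18%). MT1X and MT1M did not pass the test, with differences of -0.13 (interval -0.30 to 0.04) and -0.13 (interval -0.35 to 0.09), nor did MT2A at 0.01 (interval -0.15 to 0.18).

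At 8 h, 4 members were called higher in H2O2 (18.7% of all genes) and none lower. SLC30A1 was higher by 0.85 (SE 0.05, adjusted p = 2.07e-09) and MTF1 by 0.34 (SE 0.04, adjusted p = 5.88e-06), and the libraries of the treatments did not overlap for either gene. MT1M was higher by 0.31 (adjusted p = 0.0277) and MT1X by 0.28 (adjusted p = 0.0101). The MT1M call ended without H2O2 replicate 1 (adjusted p = 0.0526) or 3 (0.0931) or NCS replicate 2 (0.104), and the MT1X call without H2O2 replicate 3 (0.0596) or NCS replicate 1 (0.057). The MT1X call also ended in a fit of the compared groups alone (adjusted p = 0.0533). MT1E did not differ past the test (difference 0.00, interval -0.12 to 0.12).

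At 24 h, 3 metallothioneins were called higher in H2O2 (11% of all genes), and none of the 9 was called lower. MT1M was higher by 0.48 (SE 0.10, adjusted p = 0.0024), MT1E by 0.35 (SE 0.06, adjusted p = 0.000165) and MT2A by 0.31 (SE 0.08, adjusted p = 0.00738). For each of these genes, all H2O2 libraries were above all NCS libraries. SLC30A1 no longer differed past the test (difference -0.02, interval -0.14 to 0.09, adjusted p = 0.872). By size of difference, MT1M ranked 100, MT1E 239 and MT2A 330 of 19694 genes.

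The change of the treatment difference between 4 and 24 h was tested as an interaction, in which 16.6% of all genes were called with an increase and 22.7% with a decrease. The difference of H2O2 over NCS grew for MT1E by 0.58 (SE 0.08, adjusted p = 1.63e-05), for MT1M by 0.60 (SE 0.15, adjusted p = 0.00311) and for MT2A by 0.30 (SE 0.11, adjusted p = 0.0398). It shrank for SLC30A1 (change -0.94, SE 0.08, adjusted p = 2.39e-08). The MT2A call ended when any of 8 libraries was left out, namely replicates 1 and 2 of H2O2 at 4 h, 2 and 3 of H2O2 at 24 h, 2 and 3 of NCS at 4 h, and 2 and 3 of NCS at 24 h, with adjusted p-values between 0.057 and 0.116. For MT1X the change of 0.22 did not pass the test (interval -0.02 to 0.46, adjusted p = 0.14).

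**Figure D4:**
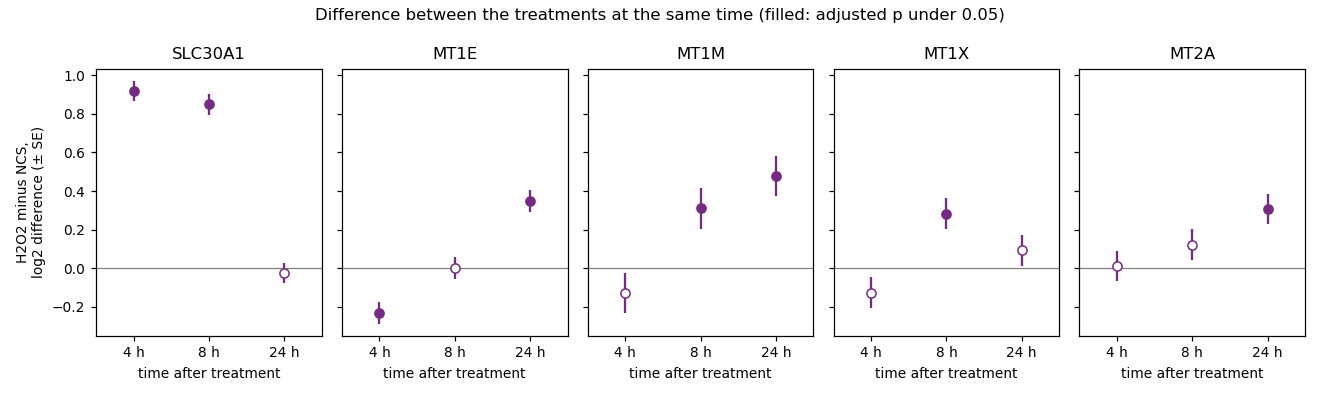
Difference of rLog values between H2O2 and NCS at the same time (y axis, log2, ± SE) at 4, 8 and 24 h (x axis) for 5 members. Filled points have an adjusted p under 0.05. SLC30A1 falls from 0.92 to -0.02, while MT1E moves from -0.23 to 0.35 and MT1M from -0.13 to 0.48.

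Between successive times within a treatment, few members were called at first and more later in H2O2. From 4 to 8 h in H2O2, MTF1 was called higher (18% of all genes) and SLC30A1 lower (27.7%). From 8 to 24 h, MT1E was called higher (19.4% of all genes) and 5 members lower (23.2%), namely SLC30A1, MTF1, MT1X, MT1F and MT1G. The MT1E rise of 0.18 (adjusted p = 0.0133) ended without H2O2 8 h replicate 2 (adjusted p = 0.0725) or 24 h replicate 3 (0.0805). It also ended in a fit of the compared groups alone (adjusted p = 0.0541). The MT1X fall of 0.22 (adjusted p = 0.0344) ended without replicate 1 (adjusted p = 0.101) or 3 (0.157) at 8 h or replicate 1 (0.103) or 2 (0.151) at 24 h. It also ended under quantile normalization (adjusted p = 0.0625) and in a fit of the compared groups alone (0.104). The falls of MT1F and MT1G, at low values, also ended without any of 2 libraries each (H2O2 8 h replicate 3 for both, 24 h replicate 2 for MT1F and 24 h replicate 3 for MT1G, with adjusted p-values from 0.0538 to 0.0991). Quantile normalization also ended the call of the MT1F fall (adjusted p = 0.0647).

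In NCS, SLC30A1, MT1X and MT1E were called lower from 4 to 8 h (7.5% of all genes), and MT1E and MT1F from 8 to 24 h (15%). The differences of MT1E were -0.19 (adjusted p = 0.0347) and -0.16 (adjusted p = 0.0369). The first ended without NCS 4 h replicate 2 (adjusted p = 0.0891) or 3 (0.144) or NCS 8 h replicate 1 (0.0527) or 2 (0.197), and the second without NCS 8 h replicate 1 (0.117) or 3 (0.186) or NCS 24 h replicate 1 (0.144) or 2 (0.0886). Both ended in a fit of the compared groups alone (adjusted p = 0.0959 and 0.0937), and the first under quantile normalization (0.0653). The MT1F difference of -0.13 (adjusted p = 0.0307) ended without NCS replicate 2 (0.0795) or 3 (0.0874) at 8 h or replicate 2 (0.0943) or 3 (0.0775) at 24 h. It also ended under median alignment (adjusted p = 0.0784). MT1M and MT2A narrowly missed the threshold from 4 to 8 h, with differences of -0.32 (adjusted p = 0.0507) and -0.23 (adjusted p = 0.0561). Both were called under median alignment and with genes of a mean of at least 5 (adjusted p at most 0.0091). Leaving out any of 6 libraries added the call of MT1M (adjusted p at least 0.0186) and any of 4 that of MT2A (at least 0.0237). From 8 to 24 h, the MT1M difference of -0.23 did not pass the test. That difference was called with genes of a mean of at least 5 (adjusted p = 0.0348) and in a fit of the compared groups alone (0.0256).

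Metallothionein transcripts are alike in sequence, which bears on how reads are assigned. In GENCODE v29, none of the windows of 100 bases along the longest transcripts of MT1A, MT1E, MT1F, MT1G, MT1M, MT2A, SLC30A1 and MTF1 occurred in another gene, while 7.68% of those of MT1X occurred in AC026461.1, which overlaps it on the same strand. The annotation behind the counts is not given in the sources used here, and how reads from that stretch were assigned was not tested. Of 10 other metallothionein genes and pseudogenes, 7 varied and none had a called difference over 0.5 from untreated cells or between treatments. Of the 7, 2 were called higher than in untreated cells at 4 h in H2O2 (26.2% of all genes). At 24 h, 1 was called higher in H2O2 (20.2%) and 1 in NCS (19.6%). MT1L, a transcribed pseudogene between MT2A and MT1E that was singled out after its values were seen, had group means between 11.53 and 11.76. It was called higher than in untreated cells by 0.24 after 24 h of H2O2 (adjusted p = 0.00151), by 0.14 at the 4 h time point (adjusted p = 0.0442), and by 0.15 after 24 h of NCS (adjusted p = 0.037). Its untreated values of 11.55, 11.39 and 11.64 overlapped those of H2O2 at 4 h and of NCS at 24 h. The MT1L calls were not tested in the alternative fits.

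Across the 7 group means, the courses of MT1E and MT1M were the most alike among the metallothioneins with values over 5 (Pearson's r = 0.838, and 0.778 over the 21 libraries). Of the metallothioneins, SLC30A1 was most like MT1G (r = 0.932) and MT1F (0.815), both at low values. Among those with values over 5, it was more like MT1X (0.799) than MT1M (0.684), MT2A (0.399) or MT1E (0.261). Of 11675 other genes with a mean of at least 5, those most like SLC30A1 were IRAK2 (0.985), IER5 (0.982), RPL8 (0.981), PTP4A1 (0.979) and HSPB8 (0.97). Over the 21 libraries, r was 0.964, 0.959, 0.838, 0.959 and 0.962 in the same order. IRAK2, a kinase of interleukin-1 receptor signalling, went from 7.13 in untreated cells to 7.91 in H2O2 and 7.57 in NCS at 4 h. Those most like MT2A were NRP2 (0.969), LRP3 (0.967), MRPS18C (0.961), TYRO3 (0.949) and ETV4 (0.948). Over the 21 libraries, these were lower, at 0.655, 0.536, 0.587, 0.728 and 0.78 in the same order. The coefficients over group means rest on 7 points that share libraries and a common normalization, and they describe the courses only.

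Among 24 other zinc transporter genes, of which 23 varied, between 14 and 22 were not called in each comparison with untreated cells. After 4, 8 and 24 h of H2O2, 4, 5 and 3 of them were called higher than in untreated cells (26.2%, 18.8% and 20.2% of all genes) and 2, 4 and 5 lower (19.7%, 18.6% and 19.9%). In NCS, 0, 2 and 6 were called higher (7.47%, 10.5% and 19.6% of all genes) and 1, 4 and 3 lower (9.72%, 13.3% and 18.4%). None of these reached a log2 difference of 1. SLC30A2, SLC30A8, SLC30A10 and TMEM163, which count among the 23, lay near the bottom of the table, with group means of at most -1.17. SLC39A14, which imports zinc, iron and manganese, had a mean of 12.46 in untreated cells and 12.98 in H2O2 at 8 h (difference 0.52, adjusted p = 6.97e-09), and it was 0.53 above NCS at that time (adjusted p = 9.24e-09). SLC39A10, a zinc importer of the plasma membrane, went in opposite directions at 4 h, from 10.00 in untreated cells to 10.44 in H2O2 and 9.61 in NCS. Its difference between the treatments was 0.83 (SE 0.04, adjusted p = 1.19e-11).

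Copper, which metallothioneins also bind, is handled by a separate set of transporters and chaperones. Of 10 such genes, 1, 3 and 5 were called higher after 4, 8 and 24 h of H2O2 and 3, 1 and 1 lower, against the same shares of all genes as for the zinc transporters. In NCS, 3, 2 and 5 were called higher (7.47%, 10.5% and 19.6% of all genes) and 1 lower each time (9.72%, 13.3% and 18.4%). No called difference from untreated cells or between the treatments was over 0.5.

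Genes known to respond to glucocorticoids moved in both directions. Of 10 such genes, 6, 3 and 4 were called higher after 4, 8 and 24 h of H2O2 (26.2%, 18.8% and 20.2% of all genes) and 4, 2 and 3 lower (19.7%, 18.6% and 19.9%). In NCS, 2, 1 and 3 were called higher (7.47%, 10.5% and 19.6% of all genes) and 6, 5 and 3 lower (9.72%, 13.3% and 18.4%). TSC22D3, which encodes the leucine zipper protein GILZ, was higher in H2O2 by 1.07, 1.07 and 0.98 at 4, 8 and 24 h (adjusted p at most 1.4e-09). ERRFI1, a feedback inhibitor of EGF receptor signalling, was higher by 1.16 at 4 h in H2O2 (adjusted p = 1.51e-14). DUSP1, a MAP kinase phosphatase, was higher by 0.60 at that time, while ZBTB16 was lower (difference -0.69). SGK1, a kinase gene induced by serum and glucocorticoids, was 0.51 higher at 4 h in H2O2 and lower at 24 h in both treatments, with differences of -0.53 in H2O2 and -0.60 in NCS. GLUL, the glutamine synthetase gene, was lower in NCS at 8 h (difference -0.50).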

How the data were processed

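RNA-seq was analysed from 21 hTERT-HPNE libraries in 7 groups of 3 biological replicates, grouped by the treatment and time in the labels. The authors prepared stranded mRNA libraries, used HISAT2 for alignment and htseq-count for gene counts, and then applied the rLog transformation of DESeq2. The deposited values are log2 (rLog) values, and per the submitters' processing notes the build was hg19. Annotation and tool versions are not given in the sources used here. Values lay between -2.314 and 20.307. Without counts, no depth, interval of counting error or detection floor could be calculated.

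The values were used as deposited. Of 23368 genes, 3674 were at 0 in every library and left out, and 2 names were duplicated. The other 19694 were fitted with limma 3.58.1 in R 4.3.3 (7 group means, mean-variance trend, Benjamini-Hochberg adjustment), and 14 contrasts were tested: 6 treated groups against untreated cells, 3 of H2O2 against NCS, 4 between successive times and 1 interaction. The fit was tested on simulated data. No count test was possible. P-values rest on the spread between replicates within all 7 groups, drawn toward the mean-variance trend over all genes fitted. Members and gene lists were chosen with earlier results of these data known. Genes outside the 9 members were named when called with an absolute log2 difference over 0.5 against untreated cells or between treatments (at most 6 per list), or as the 5 genes with the highest correlation to MT2A or SLC30A1, with the exceptions stated. Promoters came from RefSeq (GRCh38.p14) and shared windows from GENCODE v29. No coordinates on hg19 were used. Tables and figures were made with Python 3.11.15, pandas 2.3.3 and matplotlib 3.10.9. Alternatives were median alignment, quantile normalization, a mean of at least 5, only the groups compared, a replicate block, a log2 limit of 0.58 and each library left out.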

Additional observations from a re-analysis of the deposited data

Results flagged for a closer look

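For 4 of the 9 members, the difference between H2O2 and NCS itself changed between 4 and 24 h past the test (limma interaction term, adjusted over all 19694 genes). The change was 0.58 for MT1E, from -0.23 to 0.35 (adjusted p = 1.63e-05). It was 0.60 for MT1M, from -0.13 to 0.48 (adjusted p = 0.00311), and 0.30 for MT2A, from 0.01 to 0.31 (adjusted p = 0.0398). It was -0.94 for SLC30A1, from 0.92 to -0.02 (adjusted p = 2.39e-08).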

How the results depend on the processing

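Depth is unknown here, and with 3 replicates small differences of the low genes MT1A, MT1F and MT1G are limited further by rLog shrinkage. Over the 9 members and 14 contrasts there were 126 differences, 56 of them called. Median alignment ended 4 calls and added 7, and a fit of only the groups compared ended 11 and added 3. Quantile normalization ended 6 calls, ended 1 more with a change of sign and added 3. A mean of at least 5, which leaves out the 3 low genes, ended none and added 6. The difference that changed sign was that of MT1F in H2O2 against NCS at 4 h (-0.0245 under quantile normalization, not called, adjusted p = 0.712). No call of SLC30A1 ended under any alternative.

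Members called lower from 4 to 8 h in NCS numbered 5 under median alignment, a mean of at least 5 and the replicate block, and from 8 to 24 h they numbered 1 under median alignment. For the interaction, 1 member was differentially expressed under quantile normalization. At a log2 limit of 0.58, the differentially expressed members against untreated cells numbered 2 in H2O2 at 8 h, 1 at 24 h, and 2, 1 and 1 in NCS at 4, 8 and 24 h. They numbered 1 between treatments at 4 h and at 8 h, 1 in H2O2 from 4 to 8 h and 1 from 8 to 24 h, 1 in NCS from 4 to 8 h, and 3 for the interaction. The causes were not tested.

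With 1 library left out, 20 of the 56 calls ended at least once and 11 were added. The number of members called ranged from 3 to 5 for H2O2 at 24 h against untreated cells, from 1 to 4 for NCS at 8 h and from 1 to 3 for NCS at 24 h. It ranged from 2 to 5 for H2O2 against NCS at 8 h, from 3 to 6 for H2O2 from 8 to 24 h, from 2 to 5 for NCS from 4 to 8 h and from 0 to 2 for NCS from 8 to 24 h.

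Any pairing of the libraries by replicate number was weak. Deviations from group means had a mean correlation of 0.0274 between libraries with the same number (from -0.149 to 0.213) and -0.0137 otherwise. The second mean follows from the first, since deviations cancel within each group, so it is not a separate check. By comparison, the mean for the same number ran from -0.0629 (NCS at 4 h against untreated cells) to 0.14 (H2O2 against NCS at 8 h). With the replicate block, 5 members were called in NCS from 4 to 8 h, 121 of 126 results kept their side of the threshold, 1 call ended (MTF1 in NCS at 8 h, adjusted p = 0.0591) and 4 were added.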
